A study of Mus musculus with 4 samples.

Results

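The cadherin superfamily was described in samples labelled as smooth muscle cells, the contractile cells of an artery wall, from the aorta of mice. Its members were chosen by gene symbol: classical and atypical cadherins (Cdh followed by a number), protocadherins (Pcdh), the giant Fat cadherins (Fat1 to Fat4) and their Dachsous partners (Dchs). Cdh5, the cadherin of endothelial cells, was left out. The rule found 64 genes among the 39179 of the deposited table, and 48 of them passed a filter of a mean of at least 10 normalized counts over the 4 libraries, as did 15058 genes of the whole table. No measured value enters the rule, but the family was proposed with results of these same libraries known, so counts over its members are given as a description.

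There were 2 libraries of Sm-Yap/Taz-KO mice (KO), in which Yap1 and Wwtr1, the genes of the transcriptional co-activators YAP and TAZ, were targeted in smooth muscle, and 2 libraries of wild-type mice (WT). Both groups were sampled 18 days after tamoxifen. The Cre line, its promoter, the floxed alleles and the age of the mice are not stated in the labels used here, nor whether WT mice carried the Cre or whether the libraries came from separate mice. P-values therefore rest on the spread between these libraries alone, which may be a technical one, and an exact permutation test of 2 against 2 libraries could not go below p = 0.333. Stranded libraries were made from total RNA after removal of ribosomal RNA. The values are normalized read counts per gene rounded to whole numbers, with an estimated 12300000 and 11810000 reads on genes in the KO libraries and 15620000 and 16810000 in the WT libraries.

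Yap1 had 947 and 962 normalized counts in the KO libraries, against 1966 and 1877 in the WT libraries (log2 fold change −1.01, SE 0.10, adjusted p = 0.0080). Wwtr1 had 2848 and 2466 in the KO libraries, against 3423 and 4016 in the WT libraries (−0.48, SE 0.13, adjusted p = 0.0553). Both KO libraries lay below both WT libraries in each gene, and Wwtr1 missed the threshold of an adjusted p of 0.05. The deleted exons are not stated in the labels, and the counts are per gene.

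The marker genes of smooth muscle were abundant in all 4 libraries, and markers of other cell types were present too. The 8 smooth muscle markers summed to 179791 and 137092 normalized counts in the KO libraries, against 446174 and 422037 in the WT libraries, and 6 of the 8 were lower in KO. The 10 fibroblast markers summed to 313382 and 329574 in KO, against 89737 and 197740 in WT, with 2 higher. The 11 macrophage markers in the table summed to 12160 and 15360 in KO, against 1207 and 3321 in WT, and all 11 were higher. Endothelial, adipocyte and dividing-cell markers were also higher in KO, with 6 of 12, 8 of 10 and 6 of 8 past the threshold. Of all genes tested, 9.58% passed as higher and 6.70% as lower. Schwann and glial markers summed to 988 and 936 in KO and to 533 and 806 in WT, with 1 of 8 tested markers higher and 1 lower. None of the 4 tested neuronal markers passed, and neither did Krt18, the 1 tested mesothelial and epithelial marker; Krt5 and Krt14 of that list were at 0 in all 4 libraries. The 8 lymphocyte markers were all under the filter and summed to 33 and 61 in KO and to 16 and 12 in WT. In bulk samples such as these, fewer cells of a type and less RNA per cell cannot be told apart, and the part of these markers' cells in the results on cadherins was not tested.

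**Figure D1:**
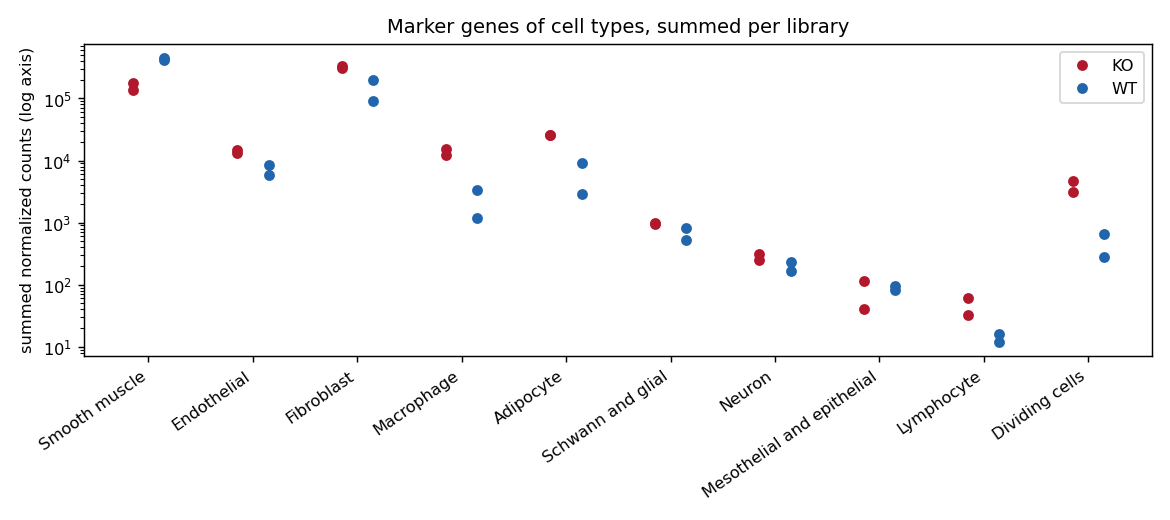
Summed normalized counts of the marker genes of 10 cell types (log axis) in each of the 2 KO and 2 WT libraries; each point is 1 library. Smooth muscle markers lie lower in KO (179791 and 137092, against 446174 and 422037 in WT), and macrophage markers lie higher (12160 and 15360, against 1207 and 3321 in WT).

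Cadherins are calcium-dependent adhesion proteins of the cell surface. Classical cadherins bind their like on the neighbouring cell and hold the actin cytoskeleton through catenins; N-cadherin (Cdh2) and T-cadherin (Cdh13) are the members best known in vascular smooth muscle. Fat and Dachsous proteins bind each other across cell borders and carry planar polarity and growth signals, in Drosophila through the Hippo pathway, whose effectors YAP and TAZ are the proteins targeted here. Protocadherins are divided into the non-clustered delta families and the alpha, beta and gamma genes that sit side by side in one genomic cluster and are best known for giving neurons their surface identity.

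Members of the family differed in direction. The genes with the highest counts in WT, the Fat cadherins Fat1 and Fat4 and the protocadherin Pcdh7, were lower in KO, P-cadherin (Cdh3) was nearly absent there, and a group of genes at lower counts, including Fat3, Pcdh19 and Pcdh1, was higher, as was the mesenchymal cadherin Cdh11. At an adjusted p of 0.05, 5 of the 48 tested members were higher in KO, 10.4% against 9.58% of all genes tested, and 5 were lower, 10.4% against 6.70% of all genes tested. With totals made equal between libraries the split was 7 higher and 4 lower, beside 12.2% and 5.69% of all genes tested, and after quantile normalization it was 4 higher and 6 lower, beside 10.1% and 8.35%. Both KO libraries lay above both WT libraries in 27 members (56.2%, against 30.7% of all genes tested) and below both in 13 (27.1%, against 32.1%), and the groups overlapped in the other 8. An unadjusted p under 0.05 with a positive log2 fold change was found for 14 members (29.2%, against 17.9% of all genes tested) and with a negative one for 7 (14.6%, against 14.6%). The median log2 fold change of the 48 was 0.37, beside −0.02 over all genes tested. Without WT replicate 2, limma called 2 members higher and 3 lower, beside 4.76% and 1.30% of all genes tested. Without KO replicate 1, KO replicate 2 or WT replicate 1 it called 0 in either direction. At an unadjusted p under 0.05, 7 members had a positive and 8 a negative log2 fold change without KO replicate 1 (11.5% and 13.8% of all genes), 9 and 6 without KO replicate 2 (1497 genes of 14920, and 11.7%), and 5 and 7 without WT replicate 1 (11.3% and 6.75%).

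**Figure D2:**
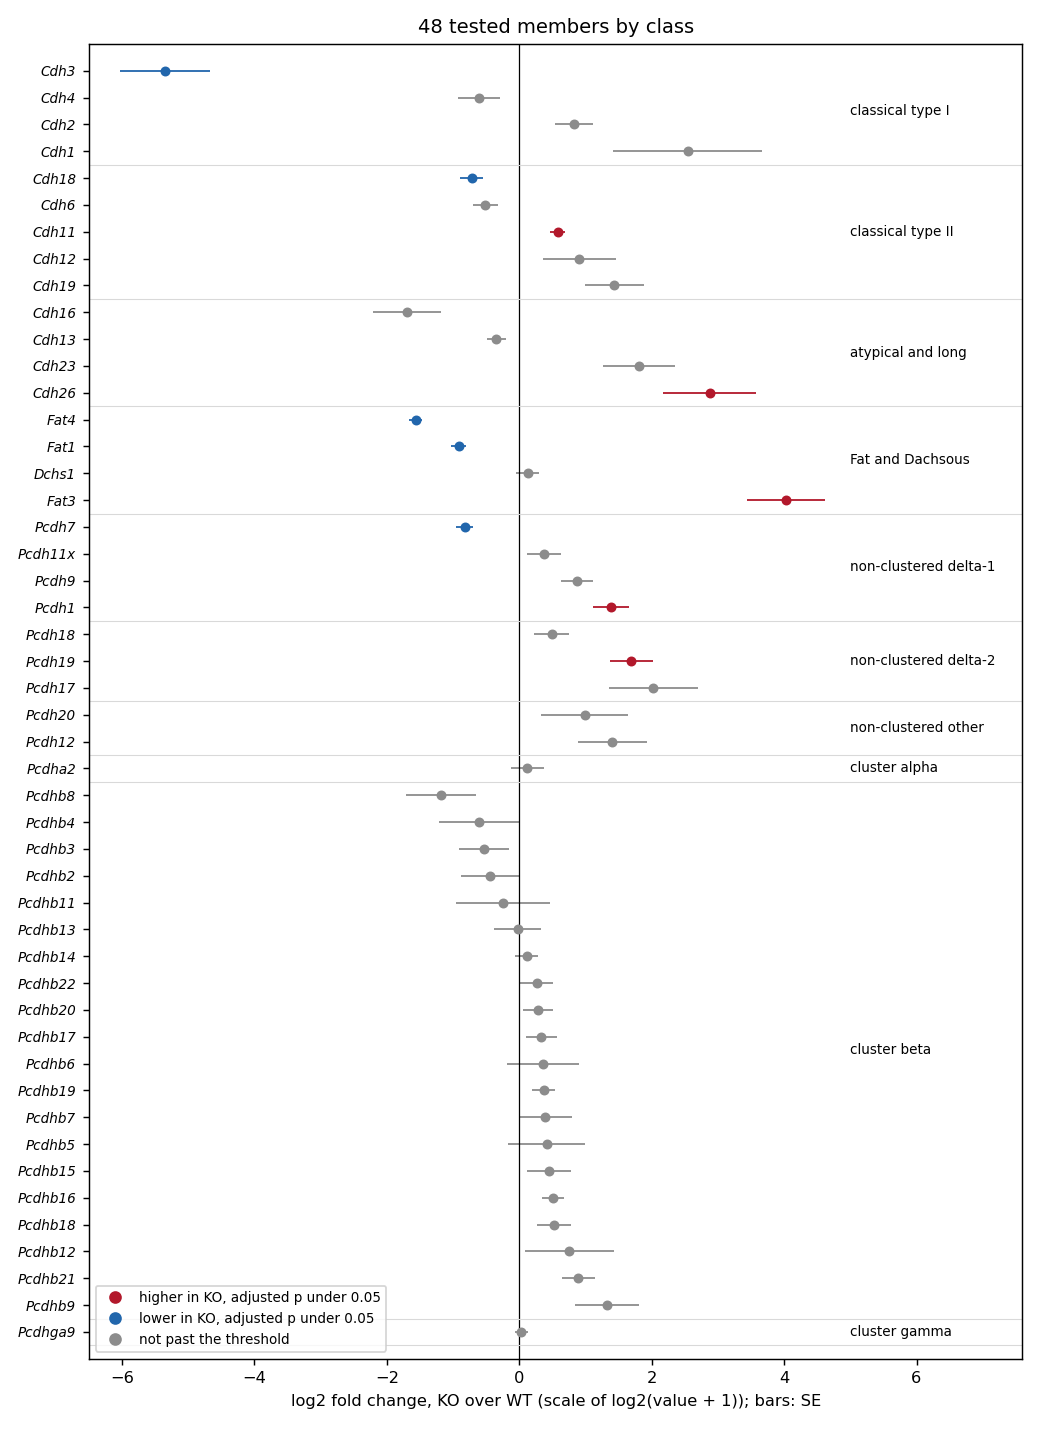
Log2 fold change of KO over WT for the 48 tested members (x axis, scale of log2(value + 1); bars are limma's SE, n = 2 libraries a group), ordered by class down the page. The 5 members lower in KO run from −5.35 (Cdh3) to −0.72 (Cdh18), the 5 higher ones from 0.58 (Cdh11) to 4.03 (Fat3), and every tested member of the alpha, beta and gamma clusters is grey, not past the threshold.

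The Fat cadherins moved in opposite directions. Fat1, a giant cadherin known to bind actin regulators and to restrain vascular smooth muscle growth, is on the plus strand of chromosome 8, 44935447 to 45052257 (GRCm38). It had 19484 and 20351 normalized counts in the KO libraries, against 37851 and 37176 in the WT libraries. The groups were far apart beside the spread within them, and the log2 fold change was −0.91 (SE 0.11, adjusted p = 0.0102). Fat4, the member of the family nearest to Drosophila Fat and the receptor that binds Dachsous, lies on chromosome 3, 38886940 to 39011985, plus strand. It had 2784 and 2640 counts in KO libraries, against 8042 and 8013 in WT libraries, a ratio of 2.96 between the WT and KO means (log2 fold change −1.57, SE 0.10, adjusted p = 0.0044). The libraries of each group lay close together in this gene. Of its exon length, 8.7% is overlapped by 2 other annotated genes, and the strand setting of the counting is not given, so reads of overlapping genes cannot be told apart there.

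Fat3, known for shaping neurites in the retina, lies on the minus strand of chromosome 9, 15910189 to 16501285. It had 118 and 53 counts in the KO libraries, against 5 and 3 in the WT libraries, and the ratio of the means was 21.4 (log2 fold change 4.03, SE 0.59, adjusted p = 0.0136). The KO libraries differ from each other by more than the WT counts themselves, yet both lie well above them. Fat2 reached 7 and 0 counts in KO and 0 and 0 in WT and was under the filter. Dchs1, the Dachsous ligand of Fat4, had 682 and 734 counts in KO libraries, against 549 and 766 in WT libraries (0.13, SE 0.18, adjusted p = 0.679), and the groups overlapped. No entry of the deposited table carries the symbol Dchs2.

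Per kilobase of exon, Fat4 was 2.63 and 2.32 times Dchs1 in the KO libraries and 9.43 and 6.74 times Dchs1 in the WT libraries. Fat1 per kilobase was 7.67 and 8.45 times Fat4 in KO and 5.16 and 5.09 times Fat4 in WT. The order of these 3 genes was therefore the same in all 4 libraries, while the distance of Fat4 from Dchs1 was smaller in KO.

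Of the 11 tested partners of Fat and Dachsous, 0 were higher and 1 was lower (limma, adjusted p under 0.05). Of all genes tested, 9.58% were higher and 6.70% lower. The 11 include planar polarity genes of the Vangl, Celsr and Prickle families and had a median log2 fold change of −0.35. The lower one was Fjx1, the mouse relative of four-jointed, a kinase that in Drosophila phosphorylates Fat and Dachsous and tunes their binding. Fjx1 had 67 and 91 counts in KO libraries, against 257 and 200 in WT libraries (−1.53, SE 0.26, adjusted p = 0.0176). Fat1, Fat4 and Fjx1, grouped here because they passed as lower, lay lower in both KO libraries than in either WT library. So did 32.1% of all genes tested. Fat3 went the other way, and the groups overlapped in Dchs1. Smooth muscle markers were lower in the same KO libraries, and their part in these values was not tested.

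YAP and TAZ reach DNA mainly through TEAD factors, whose core motif is GGAATG, so the stretches before the RefSeq starts (GRCm38.p6) of the Fat genes that passed the test are shown, 5′ to 3′ on the gene's strand, with GGAATG or its reverse complement in capitals. The stretches are chr8:44949958-44950195 (+) for Fat1, chr3:38886690-38886939 (+) for Fat4 and chr9:16502055-16502304 (−) for Fat3.
Fat1: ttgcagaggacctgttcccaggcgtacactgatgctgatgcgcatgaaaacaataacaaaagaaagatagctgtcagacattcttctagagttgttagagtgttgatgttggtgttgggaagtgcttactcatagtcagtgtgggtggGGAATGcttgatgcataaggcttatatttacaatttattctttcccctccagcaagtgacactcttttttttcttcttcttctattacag
Fat4: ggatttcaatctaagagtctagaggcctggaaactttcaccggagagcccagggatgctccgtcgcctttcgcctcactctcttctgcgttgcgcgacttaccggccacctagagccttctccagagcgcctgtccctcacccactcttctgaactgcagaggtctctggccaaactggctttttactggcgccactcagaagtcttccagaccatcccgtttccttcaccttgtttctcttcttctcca
Fat3: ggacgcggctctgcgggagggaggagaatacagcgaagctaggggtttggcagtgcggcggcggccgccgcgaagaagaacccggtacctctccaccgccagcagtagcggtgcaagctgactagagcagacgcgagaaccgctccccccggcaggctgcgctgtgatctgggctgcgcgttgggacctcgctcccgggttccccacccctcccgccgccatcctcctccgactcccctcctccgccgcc
Fat1 holds the motif once, at position −102 from its RefSeq start, and the stretches of Fat4 and Fat3 do not hold these letters. The RefSeq start of Fat1 lies 14.8 kb downstream of the start of its GENCODE M21 gene, so this stretch is inside an intron in that annotation and stops where the next exon begins. The stretch of Fat4 lies wholly inside an exon of C230034O21Rik, a gene annotated on the opposite strand. Windows of 300 bases, from 250 before to 50 after a RefSeq start, were searched on both strands for 14 tested members, with 15 windows in all; of the 10 members past the threshold, Cdh3, Cdh11 and Pcdh1 were not among them. GGAATG was in 1 of the 15 (6.7%), against 14.7% of all 32851 mouse windows of this length. The E-box CACCTG, bound by Snail and Zeb factors, was in 2 of the 15 (13.3%, Fat1 and Pcdh7), against 20.2% of all windows; in Fat1 it runs over the end of the printed stretch. A match is a description of the letters and not of a bound site, and a missing match says nothing of the factor.

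**Figure D3:**
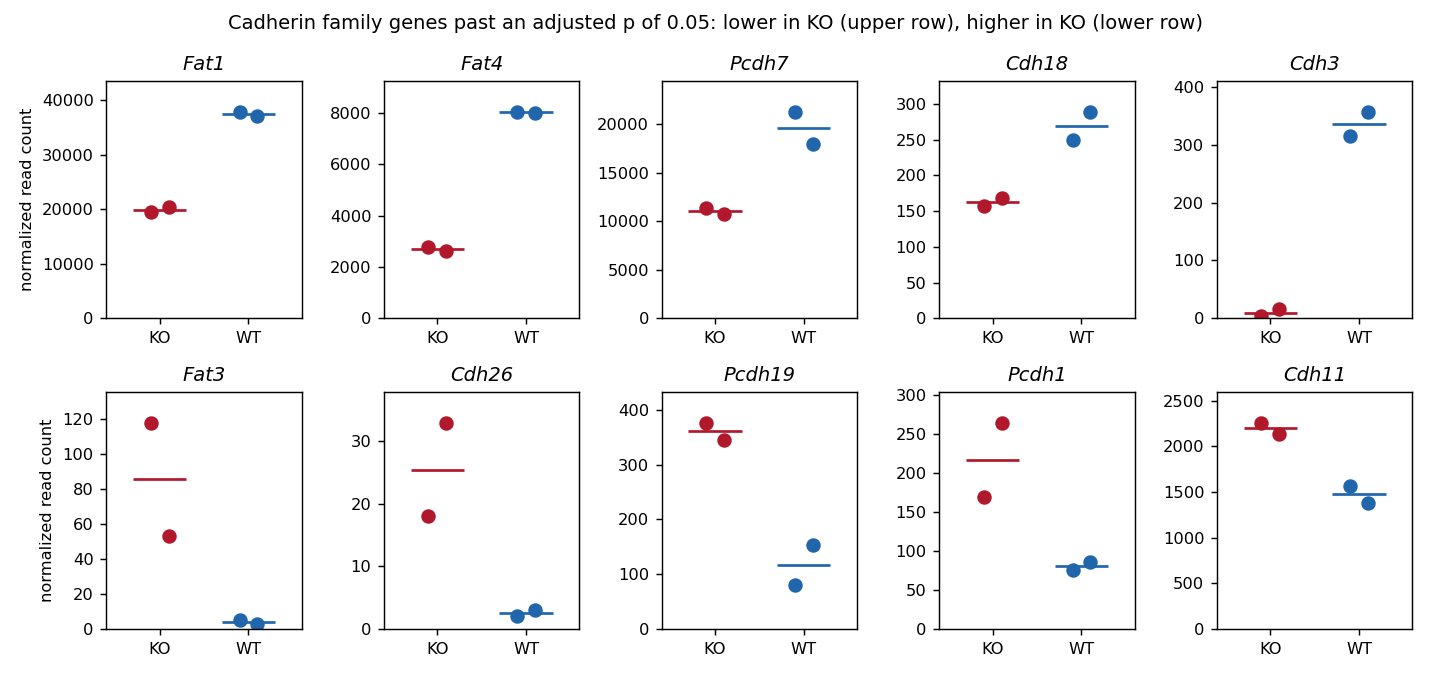
Normalized read counts of the 10 members past an adjusted p of 0.05 in each of the 2 KO and 2 WT libraries (points; lines are group means; each axis starts at 0), with the members lower in KO in the upper row. In all 10 the groups do not overlap; Cdh3 is at 3 and 16 in KO, against 315 and 357 in WT, and Fat3 at 118 and 53 in KO, against 5 and 3 in WT.

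Among the classical type I cadherins, which form the strongest adherens junctions, Cdh3 stood out. Cdh3 encodes P-cadherin, the cadherin of basal epithelia and placenta, and lies on chromosome 8, 106510891 to 106557297, plus strand. It had 3 and 16 normalized counts in KO libraries, against 315 and 357 in WT libraries. The WT mean was 35.4 times the KO mean, and the log2 fold change of −5.35 (SE 0.68, adjusted p = 0.0102) was the second lowest of the 15058 genes tested. The fold rests on very low KO counts: the log2 fold change was −4.31 without KO replicate 1 and −6.39 without KO replicate 2. Its neighbour Cdh1 (E-cadherin, the cadherin of epithelia), 46.1 kb away on the same strand, had 8 and 52 counts in KO and 1 and 6 in WT (2.55, adjusted p = 0.181). The KO libraries disagree about Cdh1, and its value did not pass the test. Mesothelial and epithelial markers were low in all 4 libraries: Krt5 and Krt14 were at 0, Msln, Upk3b and Epcam reached at most 1, 1 and 6 counts in any library, and Krt18 had 34 and 93 counts in KO and 81 and 86 in WT.

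N-cadherin (Cdh2), which joins vascular smooth muscle cells to each other and to endothelium, had 179 and 308 counts in KO libraries, against 127 and 136 in WT libraries (0.83, adjusted p = 0.105). R-cadherin (Cdh4), first known from the retina, had 51 and 37 counts in KO and 67 and 67 in WT (−0.61, adjusted p = 0.245). Neither passed the test, although the groups did not overlap in either gene. Of all genes tested, 30.7% had both KO libraries above both WT libraries, and 32.1% had both below. Muscle cadherin (Cdh15) was at 0 in all 4 libraries. Per kilobase of exon, Cdh2 was 32.6 and 10.5 times Cdh3 in the KO libraries and 0.219 and 0.207 times Cdh3 in the WT libraries. Which of these cadherins had the higher count per length thus differed between KO and WT in all 4 libraries, and the difference rests on Cdh3, the gene that passed the test.

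The 12 type II cadherins share the classical fold but are best known from mesenchyme and brain. Of these, 5 passed the filter, and 1 was higher and 1 lower, beside 9.58% and 6.70% of all genes tested. Cdh11 (OB-cadherin), a cadherin of fibroblasts, osteoblasts and other mesenchymal cells on chromosome 8, 102632095 to 102785642, minus strand, had 2258 and 2136 counts in KO libraries, against 1568 and 1377 in WT libraries (0.58, SE 0.11, adjusted p = 0.0246). Fibroblast markers were also higher in these KO libraries, with a median log2 fold change of 1.29 over the 10 genes, 2 of them past the threshold. Between the WT libraries the order differed: the markers summed to 89737 in WT replicate 1 and 197740 in WT replicate 2, while Cdh11 was higher in WT replicate 1. The part of the markers' cells in the Cdh11 difference was not tested. Cdh18, a cadherin of the nervous system on chromosome 15, 22549022 to 23474418, plus strand, had 157 and 169 counts in KO, against 250 and 289 in WT (−0.72, SE 0.18, adjusted p = 0.0447). With totals made equal Cdh18 missed the threshold (−0.64, adjusted p = 0.061; 0.0236 to 0.113 over the settings that keep all libraries).

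The other 3 tested type II cadherins did not pass. Cdh6 (K-cadherin of the developing kidney) had 280 and 315 counts in KO libraries, against 363 and 494 in WT libraries (−0.51, adjusted p = 0.129). Cdh19, a cadherin of the Schwann cell lineage, had 273 and 176 counts in KO, against 52 and 124 in WT (1.44, adjusted p = 0.0817). Schwann and glial markers were also at their lowest in WT replicate 1, as Cdh19 was, and their part in its values was not tested. Cdh12, a brain cadherin, had 54 and 51 counts in KO and 16 and 47 in WT (0.91, adjusted p = 0.313). The 7 type II cadherins under the filter included Cdh24 with 7 and 16 counts in KO and 3 and 4 in WT, Cdh10 with 7 and 10 in KO and 0 and 0 in WT, and Cdh9 with 11 and 1 in KO and 1 and 3 in WT. Cdh7 and Cdh22 were at 0, and Cdh8 and Cdh20 reached at most 2 and 3 counts in any library.

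The atypical and long cadherins lack the catenin-binding tail of classical cadherins or differ in their length. T-cadherin (Cdh13), which is held in the membrane by a lipid anchor and binds adiponectin, is the most abundant of them. It had 3952 and 3195 counts in KO libraries, against 4870 and 4175 in WT libraries (−0.34, SE 0.14, adjusted p = 0.162), a difference that did not pass the test. Cdh26, an atypical cadherin known from human epithelia, lies on chromosome 2, 178430531 to 178487366, plus strand, and had 18 and 33 counts in KO, against 2 and 3 in WT (2.88, SE 0.71, adjusted p = 0.0447). These are low counts, and after quantile normalization the adjusted p of Cdh26 was 0.0633 (0.0393 to 0.111 over the settings that keep all libraries).

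Cdh23, known from the tip links of inner ear hair cells, had 89 and 43 counts in KO libraries, against 12 and 24 in WT libraries (1.80, adjusted p = 0.0744). Cdh16, the kidney cadherin, had 11 and 11 counts in KO, against 28 and 51 in WT (−1.69, adjusted p = 0.0731). Both missed the threshold with groups that did not overlap; Cdh16 passed after quantile normalization (−2.06, adjusted p = 0.0358; 0.0358 to 0.151 over the settings that keep all libraries). The intestinal Cdh17 had 5 and 1 counts in KO and 2 and 8 in WT, and Pcdh15, the partner of Cdh23 in the tip link, had 0 and 8 in KO and 0 and 0 in WT. A second entry with the symbol Pcdh15, annotated as a pseudogene, was at 0.

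Non-clustered protocadherins of the delta-1 group, which are known to bind the phosphatase PP1 through their tails, were led by Pcdh7. Pcdh7 lies on chromosome 5, 57717967 to 58133230, plus strand, and had 11387 and 10694 counts in KO libraries, against 21244 and 17928 in WT libraries (−0.82, SE 0.13, adjusted p = 0.0147). The WT libraries differ by more than the KO libraries, but both lie well above them. The gene 4932441J04Rik overlaps 21.1% of the exon length of Pcdh7, and reads there cannot be told apart. Pcdh1, known from the airway epithelium, on chromosome 18, 38185914 to 38212053, minus strand, went the other way, with 169 and 264 counts in KO libraries, against 75 and 86 in WT libraries (1.38, SE 0.28, adjusted p = 0.0261).

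The remaining delta-1 genes did not pass. Pcdh9 had 451 and 302 counts in KO libraries, against 181 and 225 in WT libraries (0.87, adjusted p = 0.0605), and passed with totals made equal (0.95, adjusted p = 0.0355; 0.0355 to 0.176 over the settings that keep all libraries). Pcdh11x, on the X chromosome, had 120 and 171 counts in KO, against 119 and 103 in WT (0.37, adjusted p = 0.376). In both genes the KO libraries lay above the WT libraries, as in 30.7% of all genes tested, and in Pcdh11x by 1 count at the nearest.

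The delta-2 group, whose tails recruit the WAVE complex that branches actin, had 3 tested members, and in all 3 both KO libraries lay above both WT libraries, as in 30.7% of all genes tested. Pcdh19, an X-linked gene (133582860 to 133688987, minus strand) whose human counterpart is mutated in an inherited epilepsy, had 377 and 346 counts in KO libraries, against 80 and 154 in WT libraries (1.69, SE 0.32, adjusted p = 0.0228). Pcdh17 had 86 and 75 counts in KO, against 9 and 39 in WT (2.02, adjusted p = 0.0952). Pcdh18 had 369 and 401 counts in KO, against 211 and 355 in WT (0.49, adjusted p = 0.253). Pcdh19 alone of these 3 passed; for Pcdh17 and Pcdh18 the WT libraries differ widely from each other. In all 3 the lowest library was WT replicate 1, which also had the lowest fibroblast, macrophage and adipocyte marker sums; the part of those cells was not tested. Pcdh8 was at 0, and Pcdh10 had 10 and 1 counts in KO and 2 and 2 in WT.

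Outside the delta groups, Pcdh12, a protocadherin of endothelial cells, had 65 and 48 counts in KO libraries, against 13 and 32 in WT libraries (1.40, adjusted p = 0.125). Pcdh20 had 44 and 20 counts in KO and 9 and 23 in WT (0.99, adjusted p = 0.355). Neither passed. The endothelial markers, with 12 genes that include Cdh5, summed to 14912 and 13344 in KO libraries, against 5894 and 8370 in WT libraries, and so ran in the same order over the 4 libraries as Pcdh12; their part in its values was not tested.

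No clustered protocadherin passed the test. Of their 22 tested entries limma called 0 in either direction, beside 9.58% of all genes tested called higher and 6.70% lower. An unadjusted p under 0.05 was found for 3 entries, all in the beta cluster, beside 4898 of all 15058 genes tested. The deposited table carries 1 entry under an alpha and 1 under a gamma symbol; isoforms of each of these clusters share their last exons. The annotation in the table lists 9 transcripts for each entry, under 2 alpha and 9 gamma symbols, while GENCODE M21 holds 14 alpha and 22 gamma genes and gives these identifiers the names Pcdha11 and Pcdhgc4. The entries appear to pool isoforms, and which of them were counted is not known. The gamma entry, under the symbol Pcdhga9, had 5473 and 5191 counts in KO libraries, against 5310 and 5129 in WT libraries (0.03, SE 0.10, adjusted p = 0.863). The alpha entry, under the symbol Pcdha2, had 80 and 79 counts in KO, against 74 and 72 in WT (0.12, SE 0.25, adjusted p = 0.779). The gamma groups overlap, and the alpha groups lie 5 counts apart at the nearest; changes between isoforms counted in 1 entry would not be visible.

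The beta cluster has a separate entry for each of its 22 genes, which are single-exon or nearly so, stand in a row over 259.5 kb and resemble each other in sequence, so reads that fit several of them may have been lost or shared. Of the 20 tested, 14 had positive and 6 negative log2 fold changes, with a median of 0.35. The counts of all 22 summed to 2040 and 1773 in KO libraries, against 1474 and 1499 in WT libraries. Pcdhb21 had 211 and 149 counts in KO, against 91 and 99 in WT (0.90, adjusted p = 0.0606), and passed with totals made equal (0.98, adjusted p = 0.0396; 0.0396 to 0.146 over the settings that keep all libraries). Of its exon length, 9.7% is shared with Pcdhb22. Pcdhb16, the gene with the highest mean, had 282 and 265 counts in KO, against 182 and 203 in WT (0.51, adjusted p = 0.0929). Pcdhb9 had 27 and 36 counts in KO, against 10 and 14 in WT (1.33, adjusted p = 0.123). In these 3 genes the KO libraries lay above the WT libraries, as in 30.7% of all genes tested, without passing the test.

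Along the cluster, counts were low at the end that begins with Pcdhb1 and higher towards Pcdhb22. The first 10 tested genes in order, Pcdhb2 to Pcdhb12, had means of 11.5 to 52.0 over the 4 libraries and summed to 310 and 228 in KO and to 234 and 252 in WT, with 5 positive and 5 negative log2 fold changes. The last 10, Pcdhb13 to Pcdhb22, had means of 44.5 to 233 and summed to 1714 and 1538 in KO, against 1233 and 1244 in WT, with 9 positive and 1 negative. The groups of the summed counts overlap in the first 10 genes and do not in the last 10; this split was made after the values were seen and was not tested. Pcdhb19 and Pcdhb14, the next by mean count not corrected for length, had 227 and 238 counts in KO, against 189 and 171 in WT (0.37, adjusted p = 0.198), and 222 and 206 in KO, against 201 and 195 in WT (0.11, adjusted p = 0.695). Pcdhb11 showed the widest spread within a group, with 90 and 19 counts in KO and 49 and 50 in WT. Pcdhb1 was at 0 in all 4 libraries, and Pcdhb10 was under the filter with 16 and 7 counts in KO and 7 and 3 in WT.

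**Figure D4:**
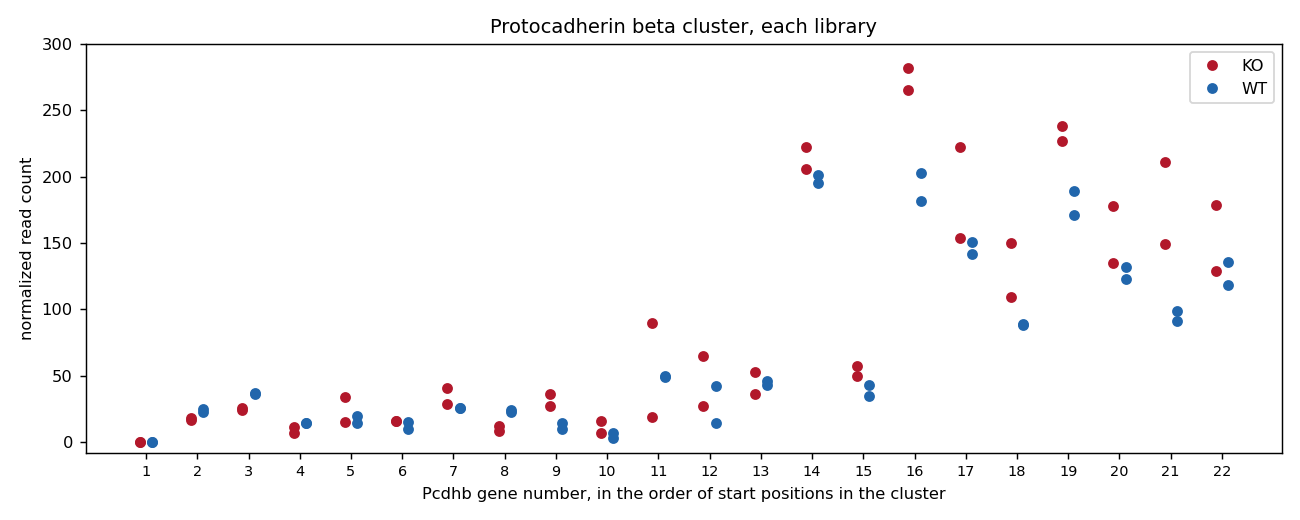
Normalized read counts of the 22 genes of the protocadherin beta cluster (x axis, gene number in the order of start positions) in each of the 2 KO and 2 WT libraries; each point is 1 library. Counts are at most 90 in the genes before Pcdhb14, and Pcdhb16 has 282 and 265 in KO, against 182 and 203 in WT.

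CTCF, cohesin and Smchd1 are known to set which clustered protocadherins are read, and the kinases Ptk2 and Ptk2b bind the tails of their proteins. Of the 8 genes of this list, all tested, 1 was higher in KO and 0 lower (limma, adjusted p under 0.05). The shares over all genes tested were 9.58% and 6.70%. The median log2 fold change of the 8 was 0.15. Ptk2b (PYK2) had 215 and 384 counts in KO libraries, against 49 and 95 in WT libraries (2.06, SE 0.41, adjusted p = 0.0261). Ptk2b is also abundant in macrophages, whose 11 markers were all higher in KO, and their part in this value was not tested.

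Catenins and adaptors tie cadherin tails to actin. Of the 15 tested, 2 were higher and 5 lower, beside 9.58% and 6.70% of all genes tested. Their median log2 fold change was −0.32. Pkp4 (p0071), an armadillo protein of the p120-catenin family, had 2603 and 2525 counts in KO libraries, against 10198 and 9284 in WT libraries (−1.92, SE 0.10, adjusted p = 0.0041). Vinculin (Vcl), which binds alpha-catenin under tension, had 6532 and 4894 counts in KO, against 12650 and 12078 in WT (−1.13, adjusted p = 0.0117). Alpha-T-catenin (Ctnna3), the alpha-catenin best known from heart, had 1383 and 1207 counts in KO, against 2474 and 2228 in WT (−0.86, adjusted p = 0.0120). In each of these genes the groups stood apart by more than the spread within them. Lima1 (EPLIN), which links alpha-catenin to actin, was higher, with 2328 and 2327 counts in KO libraries, against 794 and 1085 in WT libraries (1.33, adjusted p = 0.0099).

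The core catenins did not pass the test. Beta-catenin (Ctnnb1), also the effector of Wnt signalling, had 5817 and 5625 counts in KO libraries, against 7243 and 7082 in WT libraries (−0.32, adjusted p = 0.0714). P120-catenin (Ctnnd1), which keeps classical cadherins at the surface, had 3175 and 2978 in KO, against 4176 and 3779 in WT (−0.37, adjusted p = 0.0655). Alpha-E-catenin (Ctnna1) had 4727 and 4620 in KO, against 5184 and 5110 in WT (−0.14, adjusted p = 0.363). In all 3 the KO libraries lay below the WT libraries, as in 32.1% of all genes tested. Their log2 fold changes were nearer to 0 than those of Pkp4, Vcl and Ctnna3.

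Among 7 tested nectins and desmosome genes, 2 were lower and 0 higher (limma, adjusted p under 0.05), beside 6.70% and 9.58% of all genes. The median log2 fold change of the 7 was 0.30. Desmoplakin (Dsp), which anchors desmosomes to intermediate filaments, had 3480 and 4835 counts in KO libraries, against 11151 and 11945 in WT libraries (−1.49, SE 0.17, adjusted p = 0.0090). Perp, a desmosome-associated membrane protein, had 486 and 372 counts in KO, against 1322 and 998 in WT (−1.43, adjusted p = 0.0116). The desmosomal cadherin Dsg2 was under the filter, with 0 and 6 counts in KO and 3 and 1 in WT.

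Of the 8 tested proteases known to cut cadherins, 3 were higher and 0 lower, beside 9.58% and 6.70% of all genes tested. Their median log2 fold change was 0.54. Stromelysin (Mmp3), which sheds E-cadherin, had 4277 and 6068 counts in KO libraries, against 283 and 594 in WT libraries (3.63, SE 0.36, adjusted p = 0.0079). Mmp14 had 2709 and 3380 counts in KO, against 1470 and 1874 in WT (0.87, adjusted p = 0.0239), and Adam10, the main sheddase of E- and N-cadherin, had 1840 and 2064 in KO, against 1188 and 1349 in WT (0.62, adjusted p = 0.0245). In all 3 the groups did not overlap. Each ran in the same order over the 4 libraries as the fibroblast and macrophage marker sums, and the part of those cells was not tested.

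Of the 8 factors known to repress Cdh1 or to drive a change between cadherins, 2 were higher and 0 lower. The shares over all genes tested were 9.58% and 6.70%. Zeb2 had 7806 and 7646 counts in KO libraries, against 4071 and 5034 in WT libraries (0.77, SE 0.13, adjusted p = 0.0176), and Tcf4 had 3070 and 2920 in KO, against 1557 and 2141 in WT (0.71, SE 0.16, adjusted p = 0.0377). The other 6, among them Snai1, Snai2, Zeb1 and Twist1, did not pass. Fibroblast and macrophage markers were also higher in KO and lowest in WT replicate 1, as Zeb2 and Tcf4 were, and their part in these values was not tested.

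Corrected for exon length, Fat1 and Pcdh7 headed the 46 tested members ranked in both groups. The alpha and gamma cluster entries were left out of this ranking. Fat1 averaged 1272 normalized counts per kilobase in KO, against 2396 in WT, and Pcdh7 averaged 1041 in KO, against 1847 in WT. Cdh13 (318 in KO, 403 in WT), Cdh11 (247 in KO, 165 in WT) and Fat4 (158 in KO, 468 in WT) followed. Cdh3 held rank 46 of 46 in KO, at 2.2 counts per kilobase, and rank 6 in WT, at 76.6. Fat3 was last in WT, at 0.2 counts per kilobase, and averaged 4.0 in KO, where it held rank 41.

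**Figure D5:**
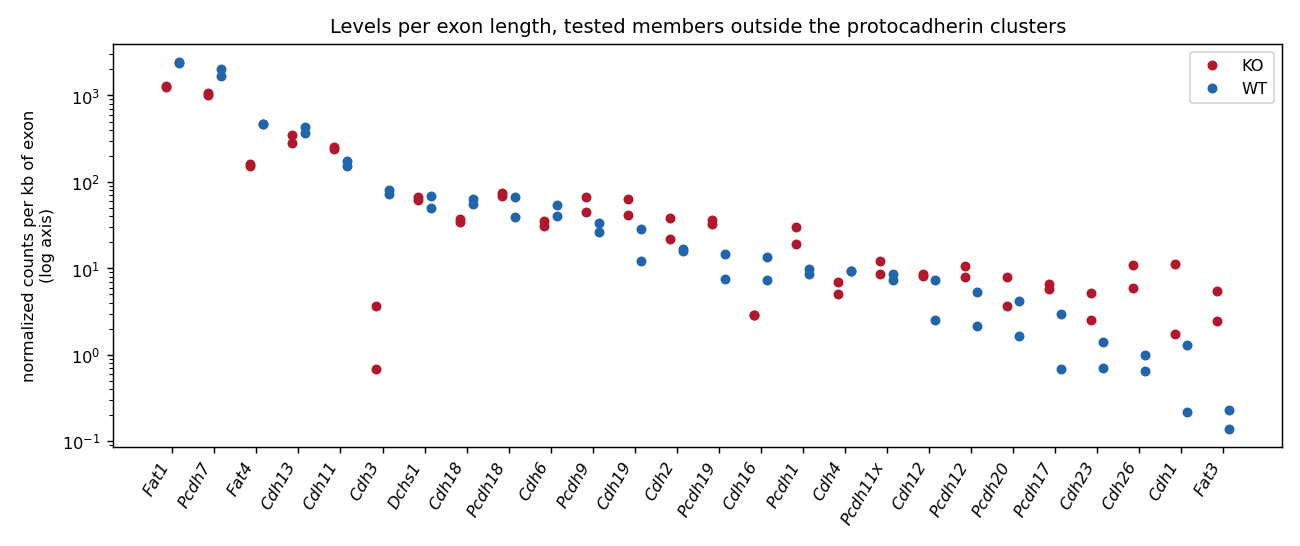
Normalized counts per kilobase of exon (log axis) of the tested members outside the protocadherin clusters, ordered by their WT mean, in each of the 2 KO and 2 WT libraries (points). Fat1 and Pcdh7 are highest in both groups, Cdh3 averages 2.2 in KO, against 76.6 in WT, and Fat3 averages 4.0 in KO, against 0.2 in WT.

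All members together made up 0.369% and 0.374% of the normalized counts in KO libraries, against 0.583% and 0.543% in WT libraries. Summed, they held 51109 and 49724 counts in KO, against 82926 and 78772 in WT. Without Fat1, Pcdh7, Fat4 and Cdh3 the sums were 17451 and 16023 in KO, against 15474 and 15298 in WT. These 4 genes were picked for being lower in KO, so the second pair of sums is a description; Cdh3 holds few of the counts, with a mean of 9.5 in KO and 336 in WT. Within the family, Fat1 took 38.1% and 40.9% of the counts in KO and 45.6% and 47.2% in WT. The gamma cluster entry took 10.7% and 10.4% in KO and 6.4% and 6.5% in WT. Its own counts overlapped between the groups (5473 and 5191 in KO, 5310 and 5129 in WT), while the family total was lower in KO.

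The WT libraries also differed from each other. WT replicate 1 had a lower count than WT replicate 2 in 14 of the 17 tested members outside the clusters with a positive log2 fold change, 5 of which passed the test, and in 4 of the 9 with a negative one, 5 of which passed. The sign of the fold change is itself drawn from the WT values. The same count was not made over all genes tested, so the pattern cannot be called particular to these members. WT replicate 1 also had the lowest sums of fibroblast (89737, beside 197740 in WT replicate 2), macrophage (1207, beside 3321) and adipocyte markers (2913, beside 9095). Whether the 2 patterns have the same source was not tested.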

How the data were processed

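The authors deposited 1 table of 39179 genes with 1 column per library. Per the submitters' processing notes, the tools were DESeq2 1.14.1, featureCounts 1.5.1 of Subread, STAR 2.5.2b and FastQC, and the build was mm10/GRCm38. Their roles, the annotation release and the strand setting are not stated there. The deposited values are normalized counts rounded to whole numbers and were treated as a score, not as raw counts, so no count model was used. Estimated reads on genes (11810000 to 16810000 a library) came from the spacing of whole numbers that each column skips or repeats.

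Values were analysed in R 4.3.3 as log2(value + 1) with limma 3.58.1 (group as the single term, intensity trend, 3.96 prior and 2 residual degrees of freedom). Genes with a mean of at least 10 were kept, 15058 in all. P-values are two-sided and Benjamini-Hochberg adjusted over all of them, with a threshold of 0.05. Fold changes understate those of low genes. The script was checked on simulated data.

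Positions, exon lengths and overlaps are from GENCODE M21 (GRCm38), promoter windows from RefSeq (GRCm38.p6); motifs were searched in 14 tested members with a window, not in Cdh1, Cdh3, Cdh4, Cdh11, Cdh13, Cdh16, Cdh19, Dchs1, Pcdh11x or members on chromosome 18. The clusters' alpha and gamma entries were left out of the ranking of levels per length. The family, its classes and all gene lists were chosen with earlier results of these data known. Named are all tested members outside the clusters, in each cluster the 3 with the smallest p and the 3 with the highest mean, and up to 4 members of each partner list past the threshold. Alternatives tried were pseudocounts of 0.5 and 5, no filter and a mean of at least 50, scaling by the trimmed mean of M values (TMM), equal totals, quantile normalization, no trend, robust estimation, a replicate block, and leaving out each library.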

Additional observations from a re-analysis of the deposited data

How the results depend on the processing

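All 10 calls among the members were kept with a pseudocount of 0.5 or 5, TMM scaling and robust estimation. A mean of at least 50 left 29 members and called 3 higher and 5 lower, beside 1267 and 1030 of all 11624 genes tested. Equal totals and quantile normalization kept 9 of the 10 calls each; Cdh18 was lost with equal totals (−0.64, adjusted p = 0.061; 0.0236 to 0.113 over the settings that keep all libraries). Without a filter on low values, and without the intensity trend, limma called 0 members and 0 genes in either direction. At an unadjusted p under 0.05, 12 of 58 members were higher and 7 lower without the filter, and 10 of 48 higher and 10 lower without the trend. Over all genes, with both directions together, 5472 of 23812 and 4274 of 15058 had such a p. The smallest adjusted p was 0.071 and 0.0643. Leaving out each library in turn gave 0 to 2 members higher and 0 to 3 lower. Of all genes, 0 to 718 were higher and 0 to 197 lower. Each of these fits has 1 residual degree of freedom and assumes the lone library to vary like its counterparts. The cause of the lost calls was not tested. Of the 10 calls, 4 held without WT replicate 2, with adjusted p of 0.0491 for Fat1, 0.0332 for Fat4, 0.0469 for Pcdh7 and 0.0350 for Pcdh19, and Pcdh17 was added (3.02, adjusted p = 0.0485). With the replicate number as a block, the members' calls were 5 higher and 5 lower, and 1823 genes were higher and 1213 lower overall; the correlation of same-numbered deviations was 0.12, which does not show that the numbers pair the libraries. The sign turned for genes near 0: Pcdha2 (−0.10), Pcdhb14 (−0.01) and Ctnna1 (0.01) after quantile normalization, Pcdhga9 (−0.01) without KO replicate 1, among −0.01 to 0.07 over the libraries left out, and Dchs1 (−0.11) without WT replicate 1, among −0.11 to 0.37; the cause was not tested. A mean under 50 counts limits Cdh1, Cdh12, Cdh16, Cdh23, Cdh26, Fat3, Pcdh12 and Pcdh20. It also limits Pcdhb12, Pcdhb13, Pcdhb15 and the tested beta genes before Pcdhb11. The KO counts of Cdh3, 3 and 16, are low as well.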
